A study of Mus musculus with 27 samples.

Results

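Ifi202b, Gm6123, Acer2, Supt16, Etnppl and Zfp663 are 6 genes followed here across 15 libraries of mouse dorsal root ganglia. They were listed by symbol because their counts differed between Ptpn2 knockout and wild-type ganglia outside the interferon program, in injured or in sham tissue, so their genotype differences are given as a description without a test. They are 6 of the 55367 symbols in the ganglion table, and all 6 were among the 18517 genes that passed a filter on low counts. The question put to each gene was whether the knockout differed from the wild type in both states, and whether genes beside it on the chromosome did too. Of the 6, 5 differed in the same direction in injured and sham ganglia, whereas Zfp663 was lower in knockout injured ganglia and higher in knockout sham ganglia. Levels of the 6 were not all alike across injury: Ifi202b and Acer2 rose after injury in wild-type ganglia, and Zfp663 fell after injury in knockout ganglia. The injury test was passed by 16.6% of all genes in wild-type and 10.9% in knockout ganglia. These comparisons share libraries with those that chose the genes, and the Ifi202b call was lost when some single libraries were left out.

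The ganglia were lumbar L4-L5 dorsal root ganglia, where the sensory neurons of the sciatic nerve have their cell bodies beside their glia. There were 5 groups of 3 libraries: Ptpn2 knockout with sciatic nerve injury (KO injured), wild type with sciatic nerve injury and the cGAS inhibitor RU521 injected into the nerve, wild type with sciatic nerve injury (WT injured), Ptpn2 knockout with sham surgery (KO sham) and wild type with sham surgery (WT sham). Injured tissue was taken 3 days after injury. The sham groups are named intact in titles, and the design text names nerve rather than ganglion as the tissue. The sources used here do not give the promoter or cell type that drove the deletion in ganglia, the strain, the sex or whether replicates were separate animals, so p-values measure the spread between these libraries. A second set of 12 libraries came from retinal ganglion cells of Ptpn2 flox mice, 3 in each of 4 groups: AAV-Cre with interferon gamma (IFNg), AAV-GFP with IFNg, AAV-Cre with PBS and AAV-GFP with PBS. Vectors were given to the eye 2 weeks before optic nerve injury, IFNg or PBS right after it, and cells were taken 3 days later. Levels are given as CPM (counts scaled to library size by TMM), and fold changes as log2 values with their standard error (SE).

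Ptpn2 encodes a tyrosine phosphatase that removes phosphate from JAK kinases and so limits signaling downstream of interferon receptors. Ifi202b belongs to the Ifi200 family, interferon-inducible mouse genes for DNA-binding proteins that lie in a cluster, and its level is known to differ between inbred mouse strains. Supt16 encodes the large subunit of FACT, a histone chaperone that lets RNA polymerase II pass nucleosomes. Acer2 encodes a Golgi ceramidase that releases sphingosine from ceramide, and Etnppl an enzyme that breaks down phosphoethanolamine and is known from astrocytes and liver. Gm6123 is annotated as a processed pseudogene, a copy of a spliced messenger RNA inserted into the genome. Zfp663 encodes a zinc finger protein.

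The genes lie on 5 autosomes (GRCm38). In the count table Ifi202b covers 173962568 to 173982744 of chromosome 1 on the minus strand and Gm6123 covers 4771131 to 4772199 of the same chromosome on the plus strand. Zfp663 covers 165351297 to 165368729 of chromosome 2 on the minus strand, and Etnppl covers 130617448 to 130637521 of chromosome 3 on the plus strand. Acer2 covers 86874396 to 86934822 of chromosome 4 on the plus strand, and Supt16 covers 52160414 to 52197416 of chromosome 14 on the minus strand. All but Gm6123 are annotated as protein coding.

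Gm6123 is a near copy of Pdhb, a gene on chromosome 14 for the beta subunit of pyruvate dehydrogenase. Of 1066 aligned bases, 1047 were identical (98.2%), 19 differed and the alignment had 2 gaps. A stretch of 80 bases is shown because it holds 5 of the differences, in capitals, by which a read can be assigned to either locus. For Gm6123 it is chr1:4771901-4771980 (GRCm38, plus strand), and for Pdhb it is coding bases 782 to 861, spliced.
Gm6123: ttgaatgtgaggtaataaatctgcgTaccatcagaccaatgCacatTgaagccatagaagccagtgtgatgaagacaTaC
Pdhb: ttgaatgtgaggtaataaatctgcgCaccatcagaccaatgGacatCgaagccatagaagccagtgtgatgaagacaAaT
Windows of 100 bases along the alignment held a median of 2 differences, and 148 of 970 windows (15.3%) held none. Counts of Gm6123 are therefore uncertain for reads that fall in such windows.

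Ganglion libraries held 14813365 to 22414750 counted read pairs, with 26235 to 34340 genes detected per library. A count of 3 corresponds to 0.134 to 0.203 CPM, taken as the floor of detection, and covers counting error only. Markers of sensory neurons summed to 2705 to 6455 CPM and markers of satellite glia to 7557 to 11992 CPM, so ganglion cells were present in every library. Mitochondrial transcripts took 12.8%, 18.3% and 18.6% of the counts in KO sham libraries, against 4.87%, 15.2% and 6.52% in WT sham libraries, with 29580 to 31290 genes detected in KO sham libraries, against 26235, 34115 and 26802 in WT sham libraries. Markers of myelinating Schwann cells summed to 9335 to 11750 CPM in KO injured libraries, against 20600 to 22447 CPM in WT injured libraries, and markers of skeletal muscle reached 3483 CPM in WT sham replicate 2, against 8.04 to 424 CPM in the other ganglion libraries. The part of these differences in the genotype values was not tested. The knockout cannot be checked with the Ptpn2 counts: Ptpn2 had 24.1, 26.5 and 18.5 CPM in KO injured ganglia, against 15.9, 19.8 and 17.5 CPM in WT injured ganglia, and 15.8, 12.1 and 10.5 CPM in KO sham ganglia, against 11.6, 19.3 and 12.9 CPM in WT sham ganglia. Those counts sum over all exons of the gene, deleted or not.

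Sex-linked transcripts moved with genotype in these libraries. Xist, the RNA that silences an X chromosome in female cells, had 69.8, 93.3 and 81.1 CPM in KO injured ganglia, against 3.66, 1.32 and 1.42 CPM in WT injured ganglia. It had 62.0, 86.1 and 101 CPM in KO sham ganglia, against 0.305, 131 and 12.5 CPM in WT sham ganglia. Xist was thus high in every knockout library and in WT sham replicate 2. The Y-linked genes Ddx3y, Uty, Eif2s3y and Kdm5d summed to 23.5, 15.2 and 31.3 CPM in KO injured ganglia, against 154, 163 and 157 CPM in WT injured ganglia. They summed to 72.6, 1.67 and 1.32 CPM in KO sham ganglia, against 156, 14.5 and 139 CPM in WT sham ganglia. Libraries of WT injured ganglia with RU521 had 0.25 to 1.07 CPM of Xist and 136 to 144 CPM of the Y-linked genes. WT sham replicate 2 was therefore the 1 wild-type library with a high Xist and a low Y-linked level, and KO sham replicate 1 had an intermediate Y-linked level. In injured ganglia the genotype and the sex-linked level cannot be told apart. These genes were chosen after their values were seen.

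**Figure D1:**
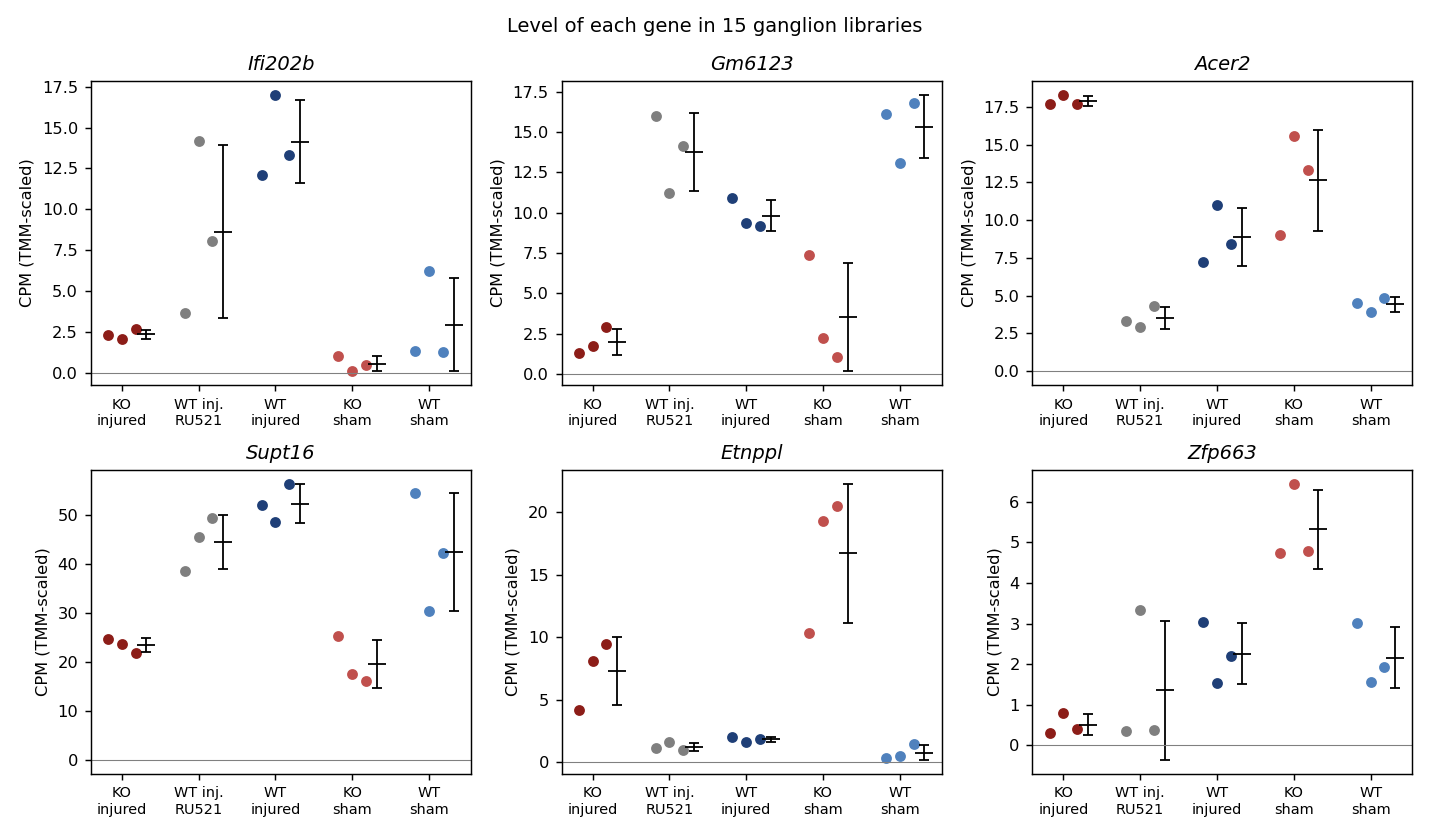
TMM-scaled CPM of each gene in every ganglion library (points) with the mean and SD of each group of 3 (bars), on linear axes. Knockout and wild-type points do not overlap in either state for any of the 6 genes, and Zfp663 alone is below the wild type in KO injured ganglia and above it in KO sham ganglia.

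Supt16, the FACT subunit, was lower in the knockout in both states. It had 24.7, 23.7 and 21.9 CPM in KO injured ganglia, against 52.0, 48.5 and 56.4 CPM in WT injured ganglia. It had 25.2, 17.5 and 16.2 CPM in KO sham ganglia, against 54.5, 30.4 and 42.3 CPM in WT sham ganglia. The groups did not overlap in either state, and the highest knockout library was KO sham replicate 1, the one with the intermediate Y-linked level. Knockout over wild type, the log2 fold change was -1.16 ± 0.20 (SE) in injured and -1.11 ± 0.20 in sham ganglia, which differed by -0.05 ± 0.29. Supt16 shares 1057 of its 5039 exon bases with Rpgrip1 on the other strand, and the reads were counted without regard to strand. Rpgrip1 was counted at 0.387 to 2.30 CPM.

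Of the chromatin genes listed with Supt16 (FACT, other histone chaperones and elongation factors), 0 of 18 passed the test between genotypes in injured ganglia in edgeR, where 2.20% of all genes did, and 0 of 18 in sham ganglia, where 0.135% did. At an unadjusted p under 0.05, 0 did in injured and 1 in sham ganglia. DESeq2 called 0 in either state, and limma-voom called 0 in injured and 2 in sham ganglia. Over all 18517 genes, 2448 had an unadjusted p under 0.05 in injured and 1607 in sham ganglia. DESeq2 called 791 and 259 of all genes in that order, and limma-voom 2101 and 3021. The median log2 fold change of the list was 0.07 in injured ganglia (-0.01 over all genes) and 0.00 in sham ganglia (-0.04 over all genes).

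Gm6123, the pseudogene, was lower in the knockout in both states. It had 1.31, 1.74 and 2.91 CPM in KO injured ganglia, against 10.9, 9.37 and 9.15 CPM in WT injured ganglia. It had 7.36, 2.21 and 1.04 CPM in KO sham ganglia, against 16.1, 13.1 and 16.8 CPM in WT sham ganglia. KO sham replicate 1 again stood between the other knockout libraries and the wild type, and the groups did not overlap in either state. As log2 fold change this was -2.30 ± 0.49 (SE) in injured and -2.11 ± 0.47 in sham ganglia, which differed by -0.20 ± 0.68.

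Pdhb, which Gm6123 resembles, did not pass the test between genotypes. Pdhb had 229, 239 and 245 CPM in KO injured ganglia, against 206, 196 and 192 CPM in WT injured ganglia. It had 303, 322 and 304 CPM in KO sham ganglia, against 354, 219 and 324 CPM in WT sham ganglia. Its log2 fold change was 0.26 ± 0.16 (SE, adjusted p = 0.529, edgeR) in injured and 0.05 ± 0.16 (adjusted p = 0.959) in sham ganglia, with 95% intervals of -0.05 to 0.58 and -0.26 to 0.36. The injured libraries of Pdhb did not overlap between genotypes, with the knockout higher, opposite in sign to Gm6123, and its sham libraries overlapped.

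Etnppl, the phosphoethanolamine enzyme, was higher in the knockout in both states, with the larger value in sham ganglia. It had 4.20, 8.10 and 9.45 CPM in KO injured ganglia, against 2.01, 1.60 and 1.87 CPM in WT injured ganglia. It had 10.3, 19.3 and 20.5 CPM in KO sham ganglia, against 0.349, 0.498 and 1.44 CPM in WT sham ganglia. No knockout library overlapped with a wild-type library of its state. The log2 fold change was 1.98 ± 0.44 (SE) in injured ganglia, a fold of 3.96, and 4.45 ± 0.48 in sham ganglia, a fold of 21.8. The injured minus the sham value was -2.47 ± 0.65.

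Markers of brown fat and of astrocytes are given beside Etnppl, and all 8 and all 4 of them were counted in every group. The brown fat markers summed to 54.2, 22.1 and 20.1 CPM in KO injured ganglia, against 37.8, 18.3 and 28.6 CPM in WT injured ganglia. They summed to 172, 277 and 290 CPM in KO sham ganglia, against 12.5, 76.3 and 18.9 CPM in WT sham ganglia. The sums overlapped between genotypes in injured ganglia and not in sham ganglia. Among KO injured libraries they ran in the opposite order to Etnppl, and among KO sham libraries in the same order. Ucp1, the uncoupling protein that defines brown fat, had 9.83, 5.35 and 2.25 CPM in KO injured ganglia, against 0.671, 0.661 and 1.03 CPM in WT injured ganglia. It had 43.1, 72.8 and 81.5 CPM in KO sham ganglia, against 0.741, 0.0623 and 1.12 CPM in WT sham ganglia, so Ucp1 was apart in both states. The astrocyte and Muller glia markers summed to 98.9 to 173 CPM in KO injured ganglia, against 57.9 to 102 CPM in WT injured ganglia, and to 73.8 to 97.6 CPM in KO sham ganglia, against 43.0 to 66.4 CPM in WT sham ganglia. The part of either in the Etnppl values was not tested. In bulk libraries, fewer cells of a type and less RNA per cell cannot be told apart.

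Among the 12 tested ethanolamine phospholipid enzymes listed with Etnppl, 1 passed the test between genotypes in injured ganglia, where 2.20% of all genes did: Pcyt2, which makes CDP-ethanolamine, fell by 0.46 ± 0.11 on the log2 scale (SE, adjusted p = 0.0364, edgeR). Pcyt2 had 103, 103 and 101 CPM in KO injured ganglia, against 139, 142 and 142 CPM in WT injured ganglia. In sham ganglia, where 0.135% of all genes passed, 0 of 12 did in edgeR, 0 had an unadjusted p under 0.05, DESeq2 called 0 and limma-voom called 1.

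Acer2, the ceramidase, was higher in the knockout in both states. It had 17.7, 18.3 and 17.7 CPM in KO injured ganglia, against 7.26, 11 and 8.45 CPM in WT injured ganglia. It had 9.03, 15.6 and 13.3 CPM in KO sham ganglia, against 4.49, 3.92 and 4.86 CPM in WT sham ganglia. The groups did not overlap in either state, and KO sham replicate 1 was the lowest knockout library. On the log2 scale the knockout was higher by 1.0 ± 0.23 (SE) in injured and by 1.51 ± 0.24 in sham ganglia, an injured minus sham value of -0.51 ± 0.34. Of the ceramide and sphingosine enzymes listed with it, 0 of 23 passed the test between genotypes in edgeR in either state. Over all genes 2.20% passed in injured and 0.135% in sham ganglia. At an unadjusted p under 0.05, 4 did in injured and 2 in sham ganglia. DESeq2 called 1 in each state, and limma-voom called 4 in injured and 6 in sham ganglia. Over all 18517 genes, 2448 had an unadjusted p under 0.05 in injured and 1607 in sham ganglia. DESeq2 called 791 and 259 of all genes in that order, and limma-voom 2101 and 3021.

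Ifi202b, the Ifi200 family gene, was lower in the knockout in both states at low counts. It had 2.32, 2.07 and 2.64 CPM in KO injured ganglia, against 12.1, 17.0 and 13.3 CPM in WT injured ganglia. It had 1.02, 0.120 and 0.485 CPM in KO sham ganglia, from 17, 2 and 7 read pairs, against 1.35, 6.23 and 1.23 CPM in WT sham ganglia. The injured groups lay far apart, and the sham groups came close, at 1.02 CPM in the highest knockout library and 1.23 CPM in the lowest wild-type library. Its log2 fold change was -2.59 ± 0.62 (SE) in injured and -2.40 ± 0.72 in sham ganglia, which differed by -0.19 ± 0.95. Without WT sham replicate 2 the sham value was -1.23.

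Macrophage markers are given beside Ifi202b. All 7 were counted in every group, and they summed to 2977, 2687 and 2665 CPM in KO injured ganglia, against 2582, 2385 and 2415 CPM in WT injured ganglia. They summed to 645, 896 and 879 CPM in KO sham ganglia, against 313, 988 and 380 CPM in WT sham ganglia, where replicate 2 was also the highest for Ifi202b. In WT injured ganglia replicate 2, the highest for Ifi202b, had the lowest macrophage sum. Each KO injured library had a higher macrophage sum and a lower Ifi202b level than any WT injured library without RU521. The part of macrophages in the Ifi202b values was not tested.

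Of the rest of the Ifi200 family, 6 of the 12 tested members passed the test between genotypes in injured ganglia, where 2.20% of all genes did. All 6 were higher in the knockout, opposite to Ifi202b, with a list median of 2.19 on the log2 scale, against -0.01 over all genes. Ifi206 had 30.4, 9.50 and 9.12 CPM in KO injured ganglia, against 1.46, 0.716 and 0.580 CPM in WT injured ganglia, a log2 fold change of 4.14 ± 0.57 (SE, adjusted p = 0.000561). Ifi205, which starts 0.0494 Mb from Ifi202b, had 44.5, 10.9 and 8.92 CPM in KO injured ganglia, against 1.89, 1.21 and 1.35 CPM in WT injured ganglia, a log2 fold change of 3.85 ± 0.60 (adjusted p = 0.00163). Ifi204, Ifi207, Ifi211 and Ifi213 were the other 4, with log2 fold changes of 1.84 to 3.64. Of the 22 interferon genes listed, 21 passed the test between genotypes in injured ganglia, all higher in the knockout. The list had a median log2 fold change of 3.02. The gene that did not pass, Rsad2, averaged 147 CPM in KO injured ganglia, against 83.7 CPM in WT injured ganglia. In sham ganglia 0 of the 12 Ifi200 genes passed the test between genotypes in edgeR, where 0.135% of all genes did. Of the 12, 2 had an unadjusted p under 0.05, and DESeq2 and limma-voom called 1 each. The list median in sham ganglia was 0.51 on the log2 scale, against -0.04 over all genes. Only Ifi214 and Ifi208, at -1.65 and -1.57, had the sign of Ifi202b, and the rest of the 12 were above 0.

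Zfp663, the zinc finger gene, changed side between the states. It had 0.313, 0.803 and 0.397 CPM in KO injured ganglia, against 3.05, 1.54 and 2.19 CPM in WT injured ganglia. It had 4.73, 6.45 and 4.78 CPM in KO sham ganglia, against 3.01, 1.56 and 1.92 CPM in WT sham ganglia. The groups did not overlap in either state. Its log2 fold change was -2.15 ± 0.71 (SE) in injured and 1.29 ± 0.62 in sham ganglia. No constant genotype difference was therefore measured for this gene.

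**Figure D2:**
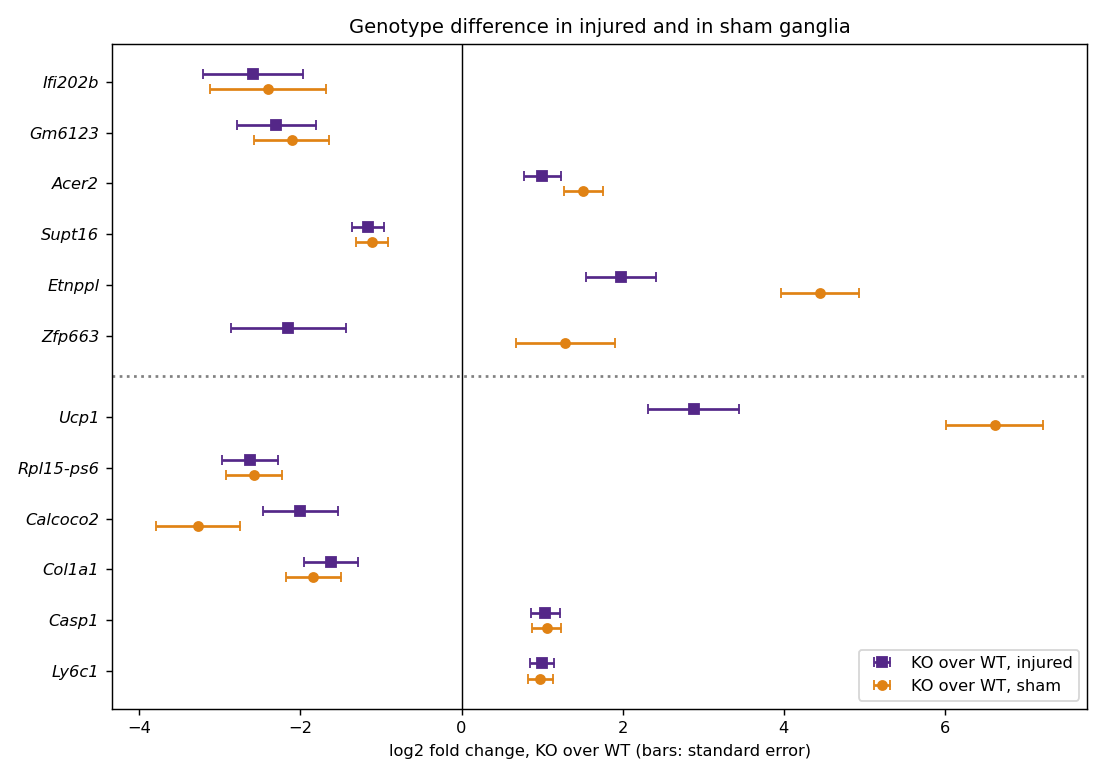
Log2 fold change of knockout over wild type with its SE, in injured (squares) and sham ganglia (circles). The 6 listed genes stand above the dotted line and 6 other genes called in both states below it (Igkv6-25, at 0 in WT sham libraries, is not drawn); Supt16 and Gm6123 have near-equal values in both states, and Zfp663 has values of opposite sign.

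The knockout and wild-type libraries of a state did not overlap for any of the 6 genes in either state, where 30.3% of all tested genes did not overlap in injured and 11.9% in sham ganglia. In both states and in 1 direction, 5 genes did not overlap, as did 2.63% of all tested genes, and Zfp663 did so in opposite directions, as did 1.63%. The genes were chosen on these values. With the 3 RU521 libraries added, all 6 knockout libraries were set against all 9 wild-type libraries. Of the 6 genes, 3 did not overlap, as did 63 of all tested genes (0.34%), and since the other 12 libraries are those the genes were chosen on, nothing is read from that count. Gm6123 spanned 1.04 to 7.36 CPM in knockout, against 9.15 to 16.8 CPM in wild-type libraries. Supt16 spanned 16.2 to 25.2 CPM in knockout, against 30.4 to 56.4 CPM in wild-type libraries. Etnppl spanned 4.20 to 20.5 CPM in knockout, against 0.349 to 2.01 CPM in wild-type libraries. Acer2 overlapped at 9.03 to 18.3 CPM in knockout, against 2.90 to 11 CPM in wild-type libraries, and Ifi202b at 0.120 to 2.64 CPM, against 1.23 to 17.0 CPM.

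Each gene was set beside the sex-linked levels. WT sham replicate 2, with Xist at 131 CPM and the Y-linked genes at 14.5 CPM, had 30.4 CPM of Supt16, the lowest wild-type value and next to the highest knockout value of 25.2 CPM. It had 13.1 CPM of Gm6123, 3.92 CPM of Acer2 and 0.498 CPM of Etnppl, each within the range of the other wild-type libraries. With the Y-linked level as a covariate, Supt16 had log2 fold changes of -0.76 ± 0.182 (SE) in injured and -0.65 ± 0.197 in sham ganglia, and Gm6123 had -1.41 ± 0.392 and -1.42 ± 0.368. Under the same covariate the values in injured and sham ganglia were 0.80 and 1.24 for Acer2, 1.67 and 4.01 for Etnppl, -2.92 and -2.60 for Ifi202b, and -2.15 and 1.29 for Zfp663. All 6 kept their direction in both states, though the Zfp663 values had SEs of 0.863 in injured and 0.829 in sham ganglia. Since genotype and Y-linked level cannot be told apart in injured ganglia, nothing is read from the kept direction. The values of Supt16, Gm6123, Acer2 and Etnppl were nearer 0 than without the covariate in both states, and those of Ifi202b were farther from 0. In sham ganglia WT replicate 2 and KO replicate 1 are the libraries in which the Y-linked level and the genotype part ways.

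**Figure D3:**
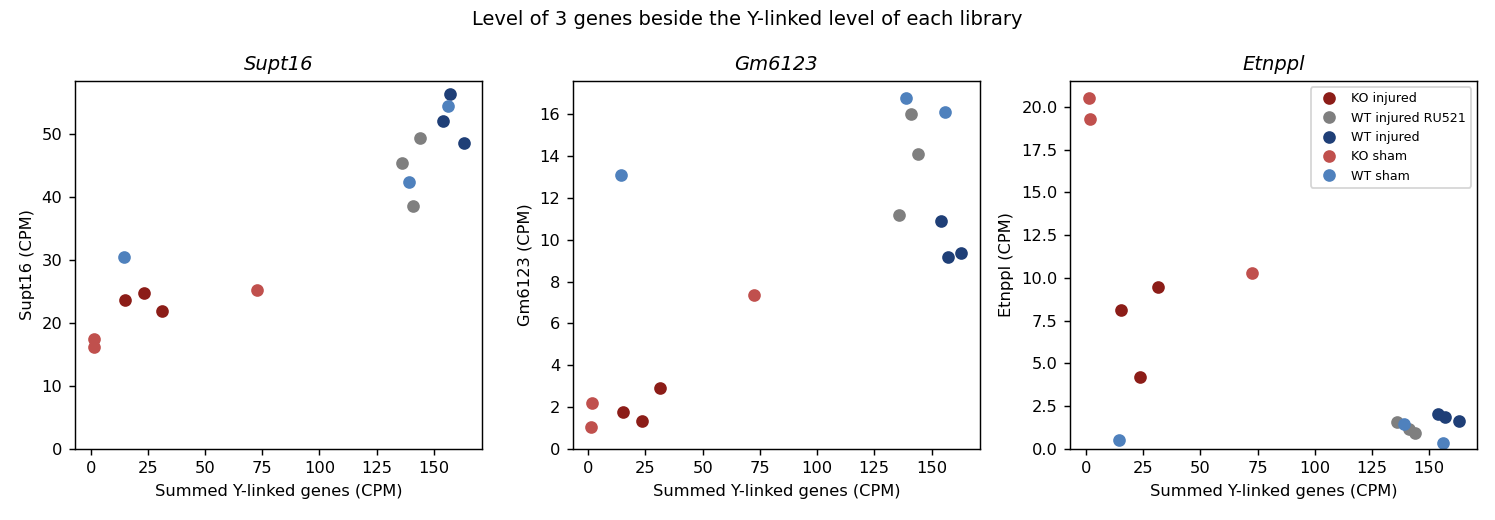
CPM of Supt16, Gm6123 and Etnppl against the summed CPM of 4 Y-linked genes in each of the 15 ganglion libraries, by group. At a low Y-linked level the single wild-type library, WT sham replicate 2, lies above the knockout libraries for Supt16 and Gm6123 and below them for Etnppl.

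A further count asked which genes passed the test between genotypes in injured and in sham ganglia in 1 direction. These comparisons share no library. There were 10 such genes, 0.054% of those tested, and none overlapped between genotypes in either state. Outside the 6 they were Igkv6-25, Ucp1, Rpl15-ps6, Calcoco2, Col1a1, Casp1 and Ly6c1. The other 3, Etnppl, Supt16 and Acer2, were chosen on these comparisons, so nothing is read from their count. The 10 lay on 8 chromosomes, with no more than 2 on any of them. None lay on chromosome 1, 2 or 18, which held 1147, 1425 and 512 of the 18517 tested genes. Of the 10, 7 passed neither injury test. With the Y-linked level as a covariate 3 genes were called in both states, none of them among the 6, and without WT sham replicate 2 there were 54.

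Values of the other 7 are given beside those of the 6. Rpl15-ps6, a ribosomal protein pseudogene, had 1.31, 1.0 and 1.72 CPM in KO injured ganglia, against 8.61, 8.27 and 8.32 CPM in WT injured ganglia, and 1.73, 1.08 and 0.485 CPM in KO sham ganglia, against 5.31, 8.28 and 6.52 CPM in WT sham ganglia. Ly6c1, a surface protein of endothelial and myeloid cells, had 48.4, 47.6 and 47.8 CPM in KO injured ganglia, against 20.4, 27.3 and 24.2 CPM in WT injured ganglia, and 33.7, 40.8 and 39.3 CPM in KO sham ganglia, against 20.4, 17.5 and 19.6 CPM in WT sham ganglia. Both had near-equal log2 fold changes in injured and sham ganglia, -2.63 and -2.58 for Rpl15-ps6 and 1.0 and 0.98 for Ly6c1. In the same order Casp1, the inflammasome protease, had 1.04 and 1.06, Calcoco2, a receptor for selective autophagy, had -2.0 and -3.27, and the collagen gene Col1a1 had -1.62 and -1.84. Igkv6-25, an immunoglobulin variable segment, was counted at 1.43 to 2.36 CPM in KO sham libraries and at 0 in every WT sham library.

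**Figure D4:**
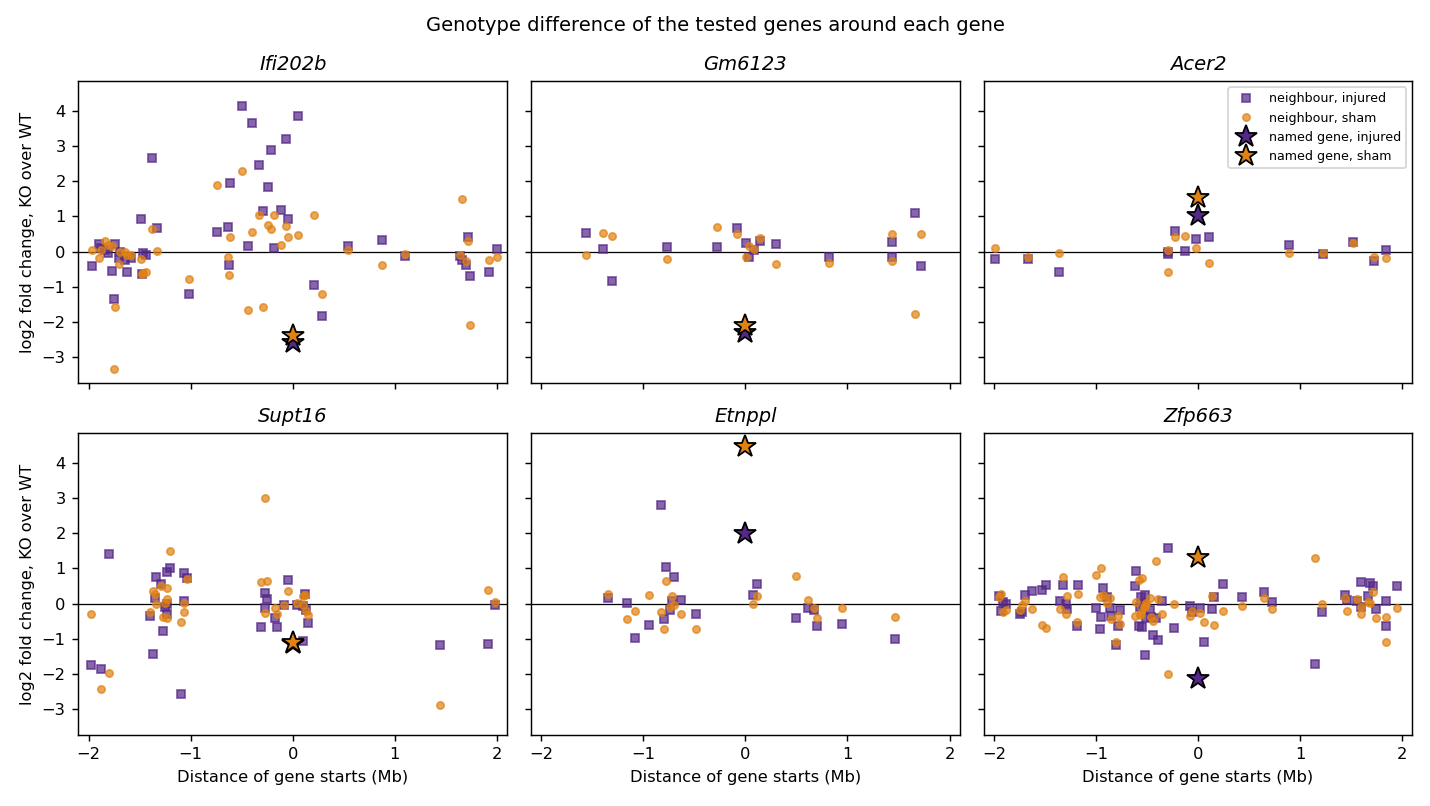
Log2 fold change of knockout over wild type for every tested gene that starts within 2 Mb of each listed gene, in injured (squares) and sham ganglia (circles), by distance between gene starts. Stars mark the listed gene. Around Ifi202b most squares within 0.5 Mb lie above 0 while both stars lie below it.

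Genes around the 6 were counted to see whether a whole stretch of chromosome differed. Within 2 Mb of the start of each gene, no tested neighbour passed the test between genotypes in both states. Over all tested genes 0.054% did so in 1 direction, so nothing is read from this 0. In injured ganglia, where 2.20% of all genes passed, the count differed by locus. Around Ifi202b 8 of 48 (16.7%) passed, 7 of them higher in the knockout, and 6 of these were the Ifi200 genes already named. Around Supt16 1 of 35 (2.86%) passed, the purine enzyme gene Pnp, with a log2 fold change of 0.89 ± 0.21 (SE, adjusted p = 0.0358), opposite in sign to Supt16. Around Etnppl 2 of 20 passed, the fatty acid elongase gene Elovl6 at -0.97 ± 0.17 (adjusted p = 0.00574) and Papss1 at -0.58 ± 0.13 (adjusted p = 0.0224), also opposite in sign to Etnppl. Around Gm6123, Acer2 and Zfp663 none of 16, 14 and 68 passed in edgeR, with 1, 2 and 10 at an unadjusted p under 0.05. DESeq2 called 0, 1 and 1 and limma-voom 0, 3 and 7. Over all 18517 genes, 2448 had an unadjusted p under 0.05, DESeq2 called 791 and limma-voom 2101.

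In sham ganglia 0.135% of all genes passed in edgeR, and no neighbour of the 6 did. Tested neighbours numbered 48 around Ifi202b, 16 around Gm6123, 14 around Acer2, 35 around Supt16, 20 around Etnppl and 68 around Zfp663. At an unadjusted p under 0.05 there were 9, 2, 2, 5, 1 and 6 in that order. DESeq2 called 2 around Ifi202b, 1 around Zfp663 and 0 around the others, and limma-voom called 8, 2, 4, 8, 4 and 14. Over all 18517 genes, 1607 had an unadjusted p under 0.05, DESeq2 called 259 and limma-voom 3021. Neighbours whose libraries did not overlap in both states in 1 direction numbered 3 around Ifi202b, 3 around Supt16, 1 each around Acer2 and Etnppl, and 0 around Gm6123 and Zfp663, where 2.63% of all tested genes did so.

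None of the 6 genes is on chromosome 18, which holds Ptpn2 at 67665511 to 67724595 on the minus strand. At this place of the engineered allele none of 28 tested neighbours passed in injured ganglia in edgeR, where 2.20% of all genes did. Of the 28, 3 had an unadjusted p under 0.05, DESeq2 called 1 and limma-voom 2. Among all 18517 genes 2448 had such a p, DESeq2 called 791 and limma-voom 2101, so nothing is read from these counts. In sham ganglia, where 0.135% of all genes passed, 1 of the 28 did: Cidea, a lipid droplet gene of the brown fat list, 0.322 Mb away. Cidea had 17.4, 31.5 and 28.0 CPM in KO sham ganglia, against 5.01, 1.43 and 4.81 CPM in WT sham ganglia. It had 2.57 to 3.04 CPM in KO injured ganglia, against 0.451 to 1.89 CPM in WT injured ganglia. Its log2 fold change in injured ganglia was 1.09 ± 0.48 (SE, adjusted p = 0.336, edgeR). Cidea was the 1 of 28 neighbours whose libraries did not overlap in both states in 1 direction (2.63% of all tested genes). Over whole nuclear chromosomes, the share of tested genes called in injured ganglia spanned 1.39% on X to 3.88% on chromosome 11, with 1.95% on chromosome 18, and in sham ganglia it lay between 0.00% and 0.556%.

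Genes with the most like pattern were sought over the 15 libraries, by Pearson's r of log2(CPM + 0.5). None of the 3 best for any of the 6 lay on the same chromosome as that gene. Those chromosomes held 641 (chromosome 14) to 1425 (chromosome 2) of the 18517 tested genes, so nothing is read from this. Gm6123 was closest to Gm12663, another processed pseudogene, on chromosome 11 (r = 0.985), to the histone gene H2bu2 (r = 0.971) and to Ubb-ps (r = 0.953). Gm12663 had 2.87, 0.837 and 0.208 CPM in KO sham ganglia, against 5.40, 5.04 and 5.72 CPM in WT sham ganglia, with KO sham replicate 1 again in between. Supt16 was closest to Gm49980 (r = 0.947), Rpl15-ps2 (r = 0.943) and Ncoa4-ps (r = 0.941), and by Spearman's rho the Y-linked gene Uty was among its 3 closest. Etnppl was closest to Igkv6-25 (r = 0.936), the brown fat gene Elovl3 (r = 0.929) and Igkv8-24 (r = 0.915). By Spearman's rho these ranked 36, 2 and 5 for Etnppl.

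Acer2 was closest to Ighv9-3 (r = 0.943), to Gfpt2, which makes hexosamine precursors (r = 0.930), and to the natural killer receptor gene Klrc1 (r = 0.925). By Spearman's rho these ranked 80, 1 and 7 for Acer2, and Ighv9-3 had at most 0.0871 CPM in WT sham libraries. Ifi202b was closest to Lrmp, a gene of lymphoid cells (r = 0.926), Rps7-ps3 (r = 0.908) and Igkv8-21 (r = 0.905). Zfp663 was closest to Tbc1d10a (r = 0.899), St3gal6 (r = 0.882) and A930009A15Rik (r = 0.878). Among the 6 themselves, Gm6123 and Supt16 had an r of 0.836, Gm6123 and Acer2 one of -0.874, Gm6123 and Etnppl one of -0.849, and Zfp663 one of -0.296 to 0.302 with each of the others. These correlations share libraries, groups and scaling and are descriptions over 15 libraries.

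Injury was tested within each genotype. These comparisons share libraries with those that chose the genes. In knockout ganglia 1 of the 6 genes passed, where 10.9% of all genes did, and in wild-type ganglia 2 of 6 passed, where 16.6% did. Ifi202b was higher in WT injured than in WT sham ganglia by 2.29 ± 0.61 on the log2 scale (SE, adjusted p = 0.0193, edgeR quasi-likelihood test), and Acer2 by 1.01 ± 0.24 (adjusted p = 0.0118). Zfp663 fell by 3.39 ± 0.72 on the log2 scale in KO injured ganglia relative to KO sham ganglia (adjusted p = 0.00716), a call that held in all 15 alternatives, with adjusted p-values of 5.59e-09 to 0.0414. The same gene had 0.05 ± 0.63 between WT injured and WT sham ganglia (adjusted p = 0.963).

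The wild-type calls were less firm. The call of Ifi202b was lost without WT sham replicate 1 (adjusted p = 0.0771) or replicate 3 (0.0849), and without WT injured replicate 2 (0.0724) or replicate 3 (0.0504). It was also lost in a fit of only the groups compared (0.057) and with a covariate for detected genes, where the log2 fold change was 1.38 (adjusted p = 0.127, the highest of 15 alternatives; the lowest was 1.91e-09). Without WT sham replicate 2 the log2 fold change was 3.43 (adjusted p = 0.000421). The call of Acer2 was lost without WT injured replicate 2 (adjusted p = 0.0707) and with the detected-gene covariate (0.0586), over a range of 0.000797 to 0.0707.

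The remaining injury values did not pass the test. Supt16 had 0.25 ± 0.20 in knockout and 0.30 ± 0.20 in wild-type ganglia (SE, adjusted p = 0.491 and 0.327), with 95% intervals of -0.15 to 0.65 and -0.09 to 0.69. Gm6123 had -0.84 ± 0.50 and -0.64 ± 0.44 (adjusted p = 0.32 and 0.345), and without KO sham replicate 1 the knockout value was 0.27. Etnppl had -1.20 ± 0.41 in knockout and 1.26 ± 0.48 in wild-type ganglia (adjusted p = 0.0694 and 0.0848), and its libraries did not overlap between injured and sham ganglia in either genotype. Ifi202b had 2.1 ± 0.73 in knockout ganglia (adjusted p = 0.0762) and Acer2 0.50 ± 0.23 (adjusted p = 0.191). DESeq2 called Etnppl in knockout and in wild-type ganglia and Ifi202b in knockout ganglia, with the same directions. Without WT sham replicate 3 the wild-type value of Etnppl was 2.11 (adjusted p = 0.0255). Over 15 alternatives each, Etnppl was called in 7 in knockout and 4 in wild-type ganglia, Ifi202b in 6 in knockout ganglia and Gm6123 in 2 in wild-type ganglia.

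Of the 12 tested Ifi200 genes, 10 rose after injury in knockout ganglia (median log2 fold change 2.68), where 10.9% of all genes were called, against 1 in wild-type ganglia, where 16.6% were. That gene was Ifi207 at 1.31 ± 0.40 (SE, adjusted p = 0.0358). The difference between these changes with injury was not tested. Of the 23 ceramide enzymes, 3 rose and 1 fell in knockout ganglia, and 2 rose and 5 fell in wild-type ganglia, beside the same 10.9% and 16.6% of all genes. Among the wild-type calls were the ceramide synthase gene Cers2 at 0.61 ± 0.11 (adjusted p = 0.00371) and the neutral ceramidase gene Asah2 at -1.30 ± 0.32 (adjusted p = 0.0131).

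**Figure D5:**
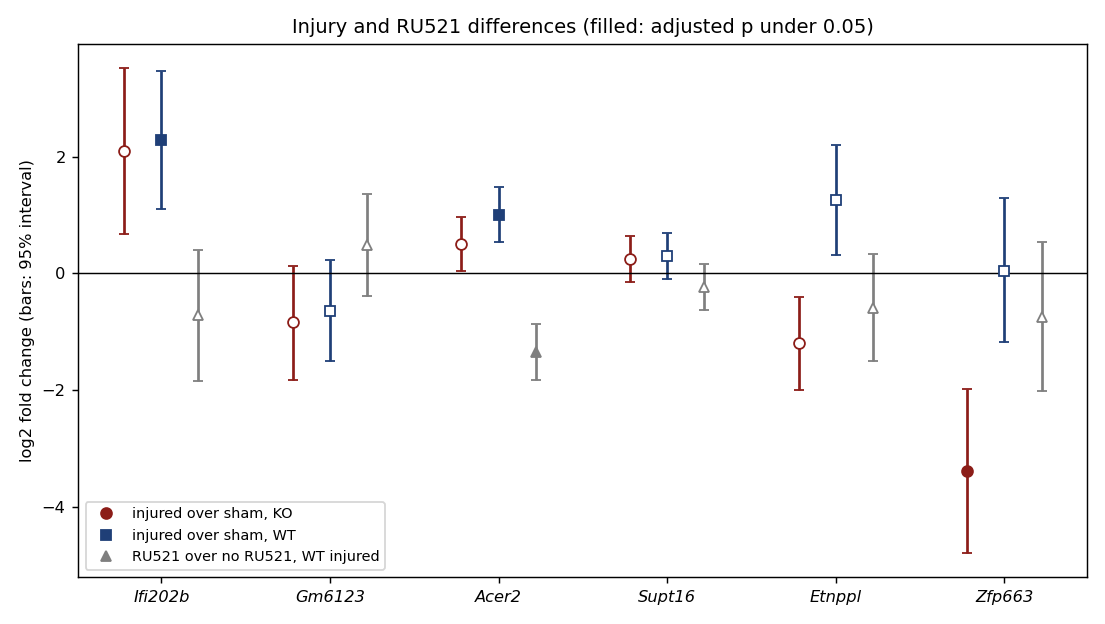
Log2 fold changes with 95% intervals for injury in knockout ganglia (circles), injury in wild-type ganglia (squares) and RU521 in injured wild-type ganglia (triangles); filled symbols have an adjusted p under 0.05. Filled symbols belong to Ifi202b and Acer2 for injury in the wild type, to Zfp663 for injury in the knockout and to Acer2 for RU521.

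RU521, an inhibitor of the DNA sensor cGAS, was compared with no RU521 in injured wild-type ganglia. Acer2 fell, and it was 1 of 6 genes to pass, where 9.58% of all genes did. It had 3.33, 2.90 and 4.32 CPM with RU521, against 7.26, 11 and 8.45 CPM without. The log2 fold change was -1.34 ± 0.25 (SE, adjusted p = 0.00521), and the call held in all 14 alternatives, with adjusted p-values of 1.34e-05 to 0.0342. The level with RU521 was thus close to that of WT sham ganglia, at 3.92 to 4.86 CPM, and apart from that of KO injured ganglia, at 17.7 to 18.3 CPM. Cell type markers differed between the same libraries. Markers of myelinating Schwann cells summed to 7620 to 9298 CPM with RU521, against 20600 to 22447 CPM without, and markers of endothelium and fibroblasts to 1268 to 1585 CPM, against 2985 to 3040 CPM. Markers of sensory neurons summed to 4279 to 6455 CPM with RU521, against 2705 to 3102 CPM without. The part of these cells in the Acer2 value was not tested.

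The other 5 did not pass with RU521. Supt16 had 38.5, 45.4 and 49.4 CPM with RU521, against 52.0, 48.5 and 56.4 CPM without (log2 fold change -0.24 ± 0.20, SE, adjusted p = 0.511, 95% interval -0.63 to 0.16). Gm6123 had 16.0, 11.2 and 14.1 CPM with RU521, against 10.9, 9.37 and 9.15 CPM without (0.49 ± 0.44, adjusted p = 0.545), and Etnppl had 1.13, 1.58 and 0.938 CPM, against 2.01, 1.60 and 1.87 CPM (-0.59 ± 0.47, adjusted p = 0.48). Ifi202b had 3.62, 14.2 and 8.07 CPM with RU521, against 12.1, 17.0 and 13.3 CPM without (-0.72 ± 0.57, adjusted p = 0.481). Macrophage markers summed to 984, 2983 and 2031 CPM in those RU521 libraries, in the same order as Ifi202b, and their part in its level was not tested.

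Zfp663 was split among the RU521 libraries. It had 0.357, 3.34 and 0.375 CPM with RU521, against 3.05, 1.54 and 2.19 CPM without, so replicates 1 and 3 were at the level of KO injured ganglia and replicate 2 above every WT injured library. The log2 fold change was -0.74 ± 0.65 (SE, adjusted p = 0.529). Without RU521 replicate 2 it was -2.60 (adjusted p = 0.00533), over a range of 0.00445 to 0.893 in 14 alternatives.

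Ordered by mean level, the groups ran differently for each gene. Supt16 had 52.3 CPM in WT injured ganglia, 44.4 CPM with RU521, 42.4 CPM in WT sham, 23.4 CPM in KO injured and 19.7 CPM in KO sham ganglia, and among neighbours in this order only WT sham and KO injured ganglia did not overlap. Gm6123 averaged 15.3 CPM in WT sham ganglia, 13.8 CPM with RU521, 9.82 CPM in WT injured, 3.54 CPM in KO sham and 1.99 CPM in KO injured ganglia. Its wild-type sham and RU521 libraries overlapped, as did its 2 knockout groups. Etnppl averaged 16.7 CPM in KO sham, 7.25 CPM in KO injured, 1.83 CPM in WT injured, 1.21 CPM with RU521 and 0.763 CPM in WT sham ganglia, where RU521 and WT sham libraries overlapped.

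Of the other 3 genes, Zfp663 alone mixed the genotypes in this order. Acer2 averaged 17.9 CPM in KO injured, 12.6 CPM in KO sham, 8.91 CPM in WT injured, 4.42 CPM in WT sham ganglia and 3.51 CPM with RU521; KO sham overlapped with WT injured ganglia, and WT sham ganglia with RU521. Ifi202b averaged 14.2 CPM in WT injured ganglia, 8.63 CPM with RU521, 2.94 CPM in WT sham, 2.35 CPM in KO injured and 0.541 CPM in KO sham ganglia, and only the last step was free of overlap. Zfp663 averaged 5.32 CPM in KO sham, 2.26 CPM in WT injured, 2.16 CPM in WT sham ganglia, 1.36 CPM with RU521 and 0.504 CPM in KO injured ganglia, and only the step below KO sham ganglia was free of overlap.

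The retinal libraries gave values that the choice of genes had not used, with the deletion made by a vector in the eye. They held 13239988 to 17122057 counts, so 3 counts corresponded to 0.175 to 0.227 CPM, and every one of the 12 had Y-linked counts (55.2 to 131 CPM). Of the 6 genes, Gm6123, Acer2 and Supt16 passed the filter on low counts, among 13487 genes. None of the 3 passed the test between genotypes in edgeR with PBS, where 0.0222% of all genes did, or with IFNg, where 0 of all genes did. None had an unadjusted p under 0.05, and DESeq2 and limma-voom called none. With IFNg, 668 of all genes had an unadjusted p under 0.05, DESeq2 called 224 and limma-voom 5. With PBS, 1281 of all genes had an unadjusted p under 0.05, DESeq2 called 519 and limma-voom 4.

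Supt16 was the best measured of the 3 in the retina. It had 19.3, 6.37 and 13.3 CPM in KO IFNg cells, against 12.3, 30.4 and 23.0 CPM in WT IFNg cells, and 8.51, 28.2 and 41.2 CPM in KO PBS cells, against 37.4, 49.7 and 29.4 CPM in WT PBS cells. The groups overlapped under both treatments. The log2 fold change was -0.75 (95% interval -2.18 to 0.67, adjusted p = 1.0, edgeR) with IFNg and -0.58 (-2.0 to 0.84, adjusted p = 0.925) with PBS. These intervals hold both 0 and the ganglion values of -1.11 and -1.16.

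Gm6123 was near the floor in retinal cells, and Acer2 varied widely between libraries. Gm6123 had 0.409, 0.386 and 0.848 CPM in KO IFNg cells, against 0.930, 0.177 and 0.805 CPM in WT IFNg cells, and 0.896, 0.722 and 0.614 CPM in KO PBS cells, against 0.478, 0.293 and 0.738 CPM in WT PBS cells. Its log2 fold changes were -0.22 (95% interval -3.73 to 3.30) with IFNg and 0.56 (-2.97 to 4.08) with PBS. Acer2 had 34, 27 and 1 counts in KO IFNg cells, against 0 in each library of WT IFNg cells (adjusted p = 0.913, edgeR), and 0, 7 and 352 counts in KO PBS cells, against 53, 1 and 0 in WT PBS cells (adjusted p = 0.949). Its counts thus ran from 0 to 352 among replicates of 1 group.

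The other 3 genes were hardly counted in retinal cells. Ifi202b had 0 counts in all 12 libraries, which allows up to 0.227 CPM in the shallowest. Etnppl had 2 counts in a single WT PBS library, and Zfp663 had 6 counts in a single WT IFNg library. A genotype difference of these 3 genes was not detectable in retinal cells at this depth.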

How the data were processed

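RNA was measured in 15 ganglion libraries (SMART-Seq v4, per the labels) and 12 retinal ganglion cell libraries (smart-seq2, per the labels). The deposited values are raw counts, 1 row per symbol. Trim Galore and STAR with the GRCm38 build are named in the submitters' processing notes. Ganglion reads were counted with featureCounts 2.0.1 on Ensembl release 101 over exons, without regard to strand, at a minimum mapping quality of 10, per the file headers, which name 20 alignment files for 15 columns. Which program the authors used for the retinal counts is not stated in the labels. A last line of the retinal table without a gene name equals the column sums (50% of the file total) and was left out. Gene positions and other annotation columns (unit other) deposited in the ganglion table were used for positions only.

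Groups came from the labels. Ganglia and retina had a fit each in edgeR 4.0.16 under R 4.3.3 (TMM, filterByExpr with a minimum count of 10 and a total of 15, robust quasi-likelihood test), with Benjamini-Hochberg adjustment over all genes tested and calls at 0.05. The SE is the log2 fold change over the square root of F, and intervals are 95%. Scripts were tested on simulated data. limma-voom (limma 3.58.1) and DESeq2 1.42.0 were alternatives, as were the filter, scaling, groups in the fit, a replicate block, leaving out each replicate and, added after the data were seen, covariates for Y-linked level and number of detected genes and leaving out WT sham replicate 2 with KO sham replicate 1. Replicate numbers did not pair libraries. The 6 genes, the gene lists and the marker lists were chosen with earlier results of these data known. Genes named beside the 6 were the 3 most like each, called neighbours, genes called in both states and list members that passed; sex-linked genes, Ucp1, Pdhb, Rpgrip1 and neighbours were named after their values were seen. Gm6123 was aligned to Pdhb in the reference of GRCm38. No library pair held the same counts.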

Additional observations from a re-analysis of the deposited data

Results flagged for a closer look

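Zfp663 differed between genotypes in opposite directions in the 2 states: every KO injured library (0.313 to 0.803 CPM) was below every WT injured library (1.54 to 3.05 CPM), and every KO sham library (4.73 to 6.45 CPM) was above every WT sham library (1.56 to 3.01 CPM). The knockout over wild type log2 value in injured ganglia minus that in sham ganglia was -3.44 ± 0.95 (SE). The gene was chosen on these values, so the difference was not tested.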

How the results depend on the processing

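Counts of called genes moved with the settings, and so did the listed genes. Of the 6, 3 were called in both states, against 5 in DESeq2 and 0 with the Y-linked covariate. Among all genes 10, 59 and 3 were, in that order. The 6 were chosen on these comparisons, so nothing is read from their counts. Over 15 alternatives, the log2 fold change in sham ganglia spanned -3.27 to -1.23 for Ifi202b, -3.32 to -1.42 for Gm6123 and -1.52 to -0.65 for Supt16. For genotype in injured ganglia 407 genes were called, against 711 with no filter on low counts, 791 in DESeq2, 2101 in limma-voom, 1877 in a fit of only the groups compared and 1373 with a covariate for detected genes; leaving out 1 replicate gave 194 to 293. For genotype in sham ganglia 25 were called, against 596, 259, 3021, 2 and 192 under the same 5 settings, 10 with the Y-linked covariate and 1418 without WT sham replicate 2 and KO sham replicate 1 (2 to 974 leaving out 1 replicate). For injury in the knockout 2021 were called, against 4417 in limma-voom, 4102 in the fit of only these groups, 3070 with the detected-gene covariate and 3227 with the Y-linked covariate (869 to 1388). For injury in the wild type 3070 were called, against 9264, 1702 and 849 under the first 3 of these settings and 6449 without the 2 libraries named (1240 to 6513). For RU521 1774 were called, against 2892 in DESeq2 and 6175 in limma-voom (476 to 2727). In retinal cells with IFNg 0 were called, against 224 in DESeq2 and 5 in limma-voom (0 to 0), and with PBS 3, against 23 with no filter, 519 in DESeq2 and 0 in the fit of only these groups (0 to 11). Genes called in both states numbered 10, against 78 with no filter, 59 in DESeq2, 145 in limma-voom, 1 in the fits of only the groups compared, 3 with the Y-linked covariate, 49 with the detected-gene covariate and 42 without the 2 libraries (2 to 54). The cause was not tested.

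Same-numbered libraries deviated together with correlations of -0.148 to 0.226, so the numbers do not pair them. A replicate block gave 439 calls for genotype in injured and 71 in sham ganglia, 2478 and 3525 for injury in knockout and wild type, 2134 for RU521, 0 in retinal cells with IFNg, 0 with PBS and 18 in both states. No alternative reversed a called value of the 6 genes. Depth limits Ifi202b in KO sham ganglia (2 to 17 read pairs) and Gm6123, Ifi202b, Etnppl and Zfp663 in retinal cells.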
